A study of Mus musculus with 18 samples.

Results

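Meis1, Meis2, Meis3, Pbx2 and Pbx3 encode homeodomain proteins of the TALE class that bind DNA together with Hox proteins. They were followed in AB1 cells, a mouse embryonic stem (ES) cell line, on 18 Affymetrix arrays with 1 array per sample. The members were all probe sets of the deposited table annotated to these symbols alone, which gave 13 of 45101 probe sets and 5 of 18194 genes. All 5 genes were among the 11388 tested. Wild-type cells and cells with both copies of the retinoic acid hydroxylase gene disrupted (CYP26A1-/-, called knockout here) were compared. Controls without treatment, taken at 8 h, had 3 arrays per genotype. Retinoic acid (RA) was given at 100 nM, with 3 arrays per genotype after 8 h and 2 after 72 h. Leukemia inhibitory factor (LIF), which holds mouse ES cells in the undifferentiated state, was present in all of these groups per the titles. One further array per genotype held untreated cells kept without LIF for 8 h. No 72 h control was analysed here, so the effect of RA at 72 h and that of time in culture cannot be told apart. The labels do not say how many knockout clones were used, or whether repeats were separate cultures.

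Hox proteins pattern the body axis and by themselves bind short, common DNA sequences. Pbx proteins bind beside them as partners, and Meis proteins bind both DNA and Pbx, which brings Pbx into the nucleus and stabilises the complex. RA is made from vitamin A, binds nuclear receptors and induces Hox genes from the anterior end of their clusters in the embryonic hindbrain and in ES cells. Meis2 carries the older name Stra10, given for its induction by RA in cultured embryonal carcinoma cells. Cyp26a1 encodes the cytochrome P450 that breaks RA down.

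The members lie on chromosome 11 (Meis1), chromosome 2 (Meis2 and Pbx3), chromosome 7 (Meis3) and chromosome 17 (Pbx2) in RefSeq's annotation of assembly GRCm38.p6. RefSeq promoter windows, from 250 bases before to 50 bases after an annotated start, were found for 4 of the 5. The windows of Meis1, Meis2 and Meis3 lay inside the annotated spans of their genes. Sequence at the 5′ ends of these spans (positions 19019651, 116067537 and 16174012) was not searched. The 250 bases before the start are shown for Meis1 and Meis2, the members that moved together, and for Meis3, the relative that did not pass the test. They run 5′ to 3′ on the gene's strand, at chr11:19018970-19019219 (minus strand), chr2:116064620-116064869 (minus strand) and chr7:16175145-16175394 (plus strand) of GRCm38.p6. Capitals mark matches to the motifs searched.
Meis1: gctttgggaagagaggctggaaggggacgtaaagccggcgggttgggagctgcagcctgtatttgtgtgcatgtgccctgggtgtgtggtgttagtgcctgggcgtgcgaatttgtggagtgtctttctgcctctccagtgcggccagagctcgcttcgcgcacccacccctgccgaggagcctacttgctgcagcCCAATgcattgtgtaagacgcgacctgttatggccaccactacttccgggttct
Meis2: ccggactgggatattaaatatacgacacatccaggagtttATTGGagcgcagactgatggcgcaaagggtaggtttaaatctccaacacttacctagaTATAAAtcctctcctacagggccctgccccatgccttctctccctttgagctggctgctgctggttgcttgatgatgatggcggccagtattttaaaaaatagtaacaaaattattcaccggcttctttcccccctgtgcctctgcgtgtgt
Meis3: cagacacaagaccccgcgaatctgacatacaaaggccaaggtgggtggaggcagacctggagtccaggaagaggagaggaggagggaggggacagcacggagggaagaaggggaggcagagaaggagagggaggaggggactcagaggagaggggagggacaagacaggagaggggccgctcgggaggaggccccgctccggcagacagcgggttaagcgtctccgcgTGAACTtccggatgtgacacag
The motifs searched on both strands of the whole 300-base windows were the RA receptor half-site AGGTCA with its variant AGTTCA, the Meis core site TGACAG, the joint Pbx and Hox site TGATNNAT, the CCAAT box, the Sp1 site GGGCGG and the TATA box TATAAA. Meis1 held CCAAT starting 54 bases before the start. Meis2 held CCAAT on the opposite strand (the capitals ATTGG, from 210 bases before the start) and TATAAA from 152 bases before it. Meis3 held AGTTCA on the opposite strand (the capitals TGAACT, from 22 bases before the start). Pbx2 held GGGCGG at 2 places. The half-site AGGTCA, the Meis core and the joint Pbx and Hox site were matched nowhere in the windows of these 4 genes. Of 32851 RefSeq windows of the same length, 37.4% held the CCAAT box, 13.6% the TATA box, 35.7% the Sp1 site, 16.3% the half-site AGGTCA and 14.0% its variant. The Meis core was held by 19.2% of them and the joint Pbx and Hox site by 8.85%. The GC content was 58.3% for Meis1, 51.0% for Meis2, 66.7% for Meis3 and 76.0% for Pbx2, with a median of 52.7% over all windows.

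Signals are in the arbitrary intensity units of the deposited table, with every array at a trimmed mean of 500 units. Differences are log2 values of signals floored at 50 units, given ± standard error, and adjusted p-values are from limma over all genes tested. "Rose" and "fell" are used of genes with an adjusted p under 0.05. Of the 8 pluripotency markers, from Pou5f1 to Tdgf1, every one reached 100 units on all 18 arrays, as the ES cell label implies. Medians over all probe sets ranged from 54.4 to 75.6 units per array, and single arrays stood apart in 2 respects. Cyp26a1 itself ranged over 193 to 216 units on the knockout arrays of 8 h RA, against 637 to 1695 in wild type, and over 2873 to 3402 units on the 72 h arrays of both genotypes. Whether its probe set lies in the disrupted part is not known here, so it does not check the labels. Socs3, which LIF induces through STAT3, stood at 367 (wild type) and 215 units (knockout) on the replicate 1 controls, which are labelled as having LIF. It read 3800 and 4551 units on the arrays labelled as lacking LIF, and 2628 to 6001 on the others, so the LIF labels of replicate 1 go against this gene. The wild-type 72 h array of replicate 2 carried fibroblast markers: 4 of 7 (Col1a1 at 302, Col1a2 at 432, Col3a1 at 253 and Dcn at 210 units) reached 100 there. On replicate 1 of that group 0 of the 7 did, and their summed signal was 354 units against 1365. On the other 16 arrays only Thy1 of the 7 did, and Lum and Postn stayed under 60 units everywhere. Several calls at 72 h changed without this array or without the replicate 1 controls, as given below.

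After 72 h of RA, Meis1, Meis2 and Pbx3 rose in both genotypes, Meis1 and Meis2 from signals near or under the floor. Pbx2 and Meis3 were higher than in control cells on every array of both genotypes but did not pass the test. After 8 h of RA none of the 5 passed it. With the replicate number, partly given in accession order, as a block, Pbx2 and Meis3 passed it at 72 h in both genotypes. Pbx2 then also passed it at 8 h in both. In knockout cells Meis1 stood lower than in wild type after 72 h, by 2.88-fold, and this call rested on single arrays.

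**Figure D1:**
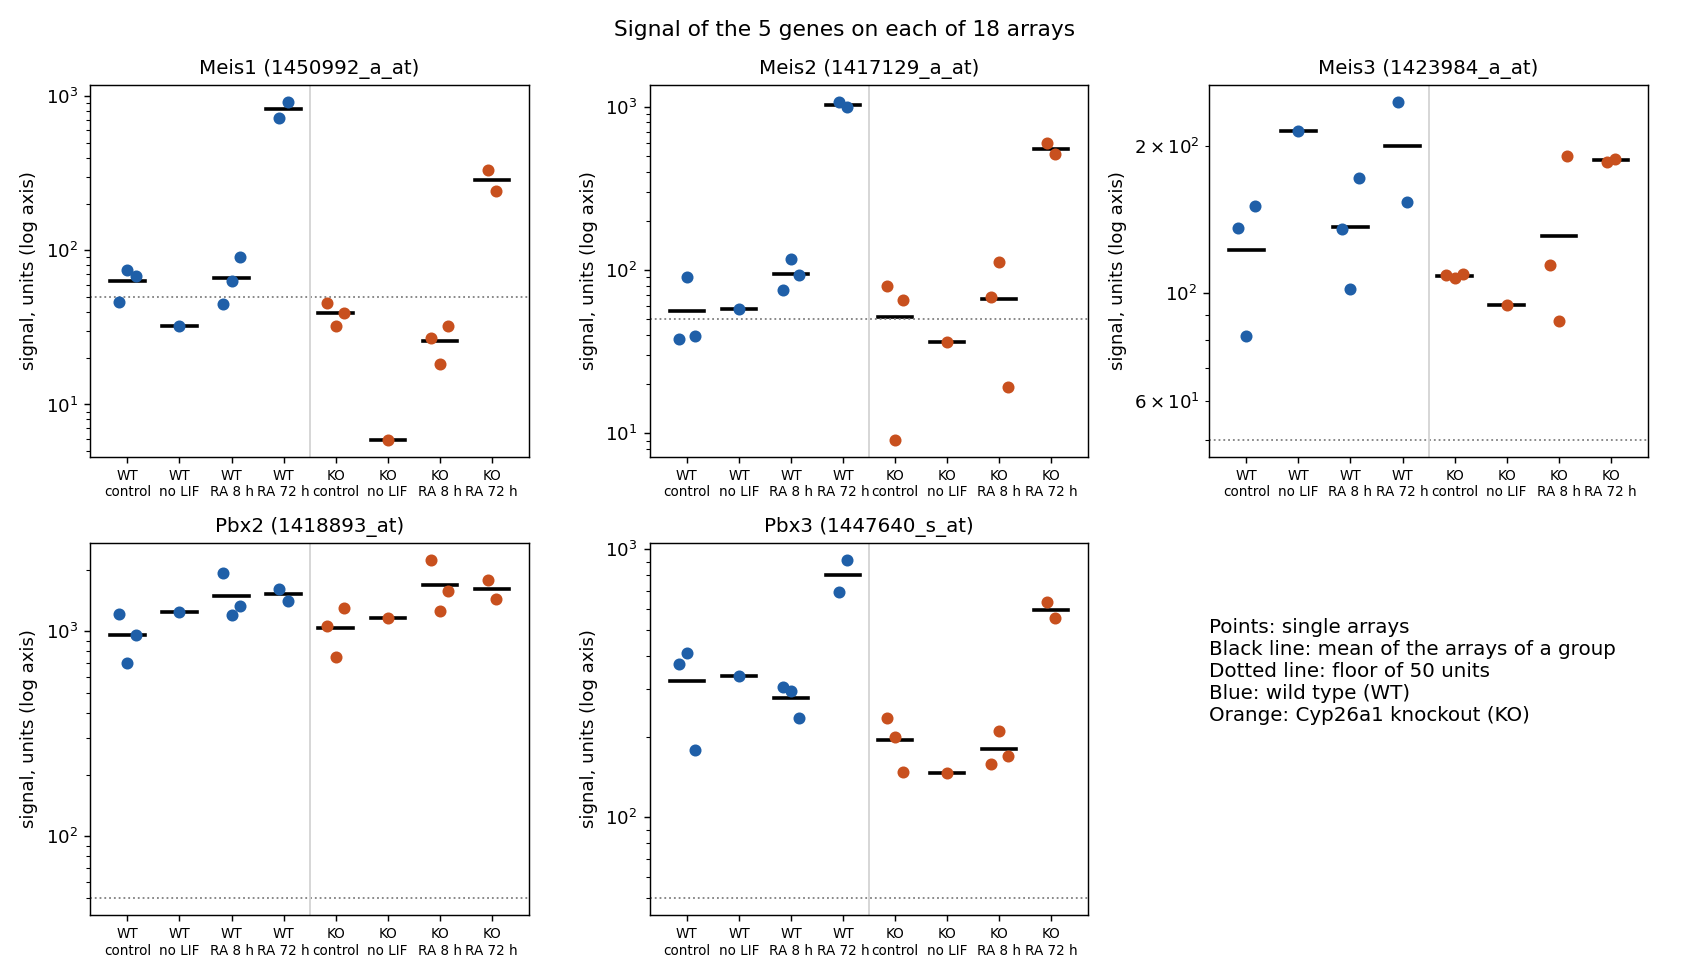
Signal (units, log axis) of the probe set standing for each of the 5 genes, with 1 point per array and a black line at the mean of each group. The 4 arrays of 72 h RA stand apart from all others for Meis1, Meis2 and Pbx3, and the groups lie close together for Pbx2 and Meis3.

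Meis1 encodes a Pbx and Hox partner of blood stem cells and the hindbrain. Its signal on probe set 1450992_a_at was 46.5, 75.1 and 68.5 units in wild-type control cells and 45.0, 62.9 and 91.0 units after 8 h of RA. After 72 h of RA it was 728 and 921 units. In knockout cells the controls read 45.9, 32.2 and 39.5 units, the 8 h arrays 26.9, 18.3 and 32.1 units and the 72 h arrays 330 and 245 units. Every knockout array of the first 2 conditions thus lay under the floor, and the 72 h arrays lay above all others in both genotypes. Meis1 reached 100 units on the 4 arrays of 72 h RA alone, so it entered the test through the groups in which it was high. It rose 12.9-fold in wild type (3.69 ± 0.27, limma adjusted p = 2.36e-07) and at least 5.68-fold in the knockout (at least 2.51 ± 0.27, adjusted p = 1.09e-05). One of the 3 wild-type controls lay under the floor too, so the wild-type fold is partly set by it. Without the wild-type array that carried fibroblast markers the wild-type rise was 3.52 ± 0.36. The probe set 1443260_at read 18.4 to 48.4 units in wild-type controls and 139 and 293 units after 72 h, a rise of at least 2.01 ± 0.30 (adjusted p = 0.000297 over all probe sets, of which 11.1% rose in wild type and 10.2% in the knockout). Only these 2 arrays reached 100 units, so this probe set was tested through the group in which it was high. Knockout arrays read 91.5 and 55.7 units after 72 h, which was not past the test (at least 0.51 ± 0.30, adjusted p = 0.290). A further probe set, 1459423_at, reached 100 units on no array and had no clear signal in any group.

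Meis2 encodes the close relative of Meis1, and its standing probe set was 1417129_a_at. Wild-type controls read 37.7, 90.4 and 39.3 units, 8 h of RA gave 75.7, 117 and 92.5 units, and 72 h gave 1069 and 989 units. Knockout controls read 79.8, 9.12 and 65.5 units, the 8 h arrays 67.9, 112 and 19.1 units and the 72 h arrays 594 and 511 units. The control and 8 h groups overlapped, and the 72 h arrays lay far above both. Meis2 rose 16.9-fold in wild type (4.08 ± 0.35, adjusted p = 1.12e-06) and 8.62-fold in the knockout (3.11 ± 0.35, adjusted p = 1.48e-05). Of the controls 2 of 3 in wild type and 1 of 3 in the knockout were set to the floor, so these folds depend on it. A probe set with other targets as well, 1457632_s_at by the suffix of its name, rose by 3.48 ± 0.42 in wild type and 2.68 ± 0.42 in the knockout. The probe sets 1440091_at and 1447861_x_at stayed too dim to be tested, with highest signals of 127 and 243 units, both on the wild-type 72 h array that carried fibroblast markers. Without that array the wild-type rise of Meis2 was 4.13 ± 0.46.

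Meis3, the remaining Meis gene, is best known from the neural tube of frog and fish embryos, where it acts in hindbrain formation. Its only probe set, 1423984_a_at, read 136, 81.4 and 151 units in wild-type controls, 135, 102 and 172 units after 8 h and 247 and 153 units after 72 h. In the knockout the values were 109, 107 and 109 units, then 114, 87.4 and 191 units, then 186 and 188 units. The 72 h arrays lay above the controls in both genotypes, in wild type narrowly, at 153 against 151 units. The difference was 0.71 ± 0.34 in wild type (adjusted p = 0.148) and 0.79 ± 0.34 in the knockout (adjusted p = 0.118), not past the test. With the replicate number, partly given in accession order, as a block both passed it, at 0.88 ± 0.26 (adjusted p = 0.0162) and 0.96 ± 0.26 (adjusted p = 0.0112).

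Pbx2 encodes a widely expressed Pbx protein. On 1418893_at wild-type controls read 1215, 704 and 956 units, against 1929, 1199 and 1326 units after 8 h of RA and 1616 and 1411 units after 72 h. Knockout controls read 1065, 750 and 1294 units, the 8 h arrays 2226, 1260 and 1574 units and the 72 h arrays 1775 and 1442 units. The 8 h group overlapped the controls by 1 array in each genotype and the 72 h group did not overlap them. At 8 h the difference was 0.64 ± 0.25 in wild type (adjusted p = 0.478) and 0.70 ± 0.25 in the knockout (adjusted p = 0.340), and at 72 h 0.69 ± 0.28 (adjusted p = 0.0898) and 0.66 ± 0.28 (adjusted p = 0.111). Between 8 and 72 h Pbx2 differed by 0.056 ± 0.28 in wild type and -0.036 ± 0.28 in the knockout. Without the wild-type control of replicate 1, whose LIF label is in doubt, the wild-type 72 h difference was 0.88 and passed the test (adjusted p = 0.0487). The other 2 probe sets went the same way, of which 1418894_s_at has other targets as well by the suffix of its name. On 1418894_s_at the 8 h arrays lay above the controls without overlap in both genotypes, at 433 to 586 against 226 to 374 units in wild type and 466 to 567 against 285 to 357 units in the knockout (differences of 0.68 ± 0.20 and 0.71 ± 0.20, adjusted p = 0.256 and 0.209 over all probe sets). Groups did not overlap upward at 8 h in 5.10% of all probe sets in wild type and 5.98% in the knockout. At 72 h this probe set rose by 0.73 ± 0.22 (adjusted p = 0.0342) and 0.89 ± 0.22 (adjusted p = 0.0134). The probe set 1449261_at differed by 0.91 ± 0.37 and 1.18 ± 0.37 at 8 h, and at 72 h by 0.79 ± 0.41 in wild type and by 1.46 ± 0.41 in the knockout, of which only the last passed the test (adjusted p = 0.0255). The wild-type call of 1418894_s_at was lost without the array that carried fibroblast markers (adjusted p = 0.0707), and the knockout call of 1449261_at without the replicate 1 controls (adjusted p = 0.0856). With the replicate number as a block, 1418893_at passed the test at 8 h in both genotypes (adjusted p = 0.0404 in wild type and 0.0218 in the knockout) and at 72 h (0.00535 and 0.00753). The call on Pbx2 thus depended on the probe set, on single arrays and on the block.

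Pbx3 encodes a Pbx protein of the developing nervous system and blood. Its standing probe set, 1447640_s_at, has other targets as well by the suffix of its name. Its signal may thus not come from Pbx3 alone. On 1447640_s_at wild-type controls read 374, 412 and 179 units, the 8 h arrays 306, 296 and 236 units and the 72 h arrays 695 and 913 units. The knockout gave 234, 199 and 148 units, then 159, 210 and 169 units, then 639 and 553 units. The 72 h arrays lay above all controls and all 8 h arrays in each genotype, while control and 8 h arrays overlapped. Pbx3 rose 2.64-fold in wild type (1.40 ± 0.31, adjusted p = 0.00394) and 3.12-fold in the knockout (1.64 ± 0.31, adjusted p = 0.00137). The wild-type call was lost without the array that carried fibroblast markers (1.20 ± 0.40, adjusted p = 0.0612). The probe set 1421193_a_at also rose, by 0.79 ± 0.24 in wild type and 1.31 ± 0.24 in the knockout (adjusted p = 0.0358 and 0.00195 over all probe sets), of which the wild-type call was also lost without that array (0.71 ± 0.31, adjusted p = 0.204).

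In all, 3 of 5 members rose at 72 h against control in each genotype, where 16.1% of all genes tested rose in wild type and 14.8% in the knockout. Meis1 passed the filter only through the 72 h arrays, so the member counts and medians at 72 h are a description and no support. The same 3 rose from 8 to 72 h of RA, by 3.64 and at least 2.51 (Meis1), 3.46 and 2.93 (Meis2) and 1.52 and 1.74 (Pbx3) in wild type and knockout. The shares of all genes tested that rose from 8 to 72 h were 14.1% and 12.7%. With the replicate number as a block 4 of 5 members were called from 8 to 72 h in each genotype, where 31.3% and 27.7% of all genes were called in either direction. Every 72 h array of all 5 genes lay above every control array of its genotype, which held for 30% of all genes in wild type and 31% in the knockout. The median difference of the 5 at 72 h was 1.40 in wild type and 1.64 in the knockout, beside 0.064 and 0.056 over all genes. Without the wild-type array that carried fibroblast markers 2 of 5 rose in wild type, and with the replicate 1 controls left out 3 rose in each genotype. With the replicate number as a block all 5 rose in each genotype, where 34.6% and 32.9% of all genes were called in either direction. These shares are thus not like the shares of genes that rose given above. In bulk RNA, more cells that express a gene and more RNA per cell cannot be told apart.

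**Figure D2:**
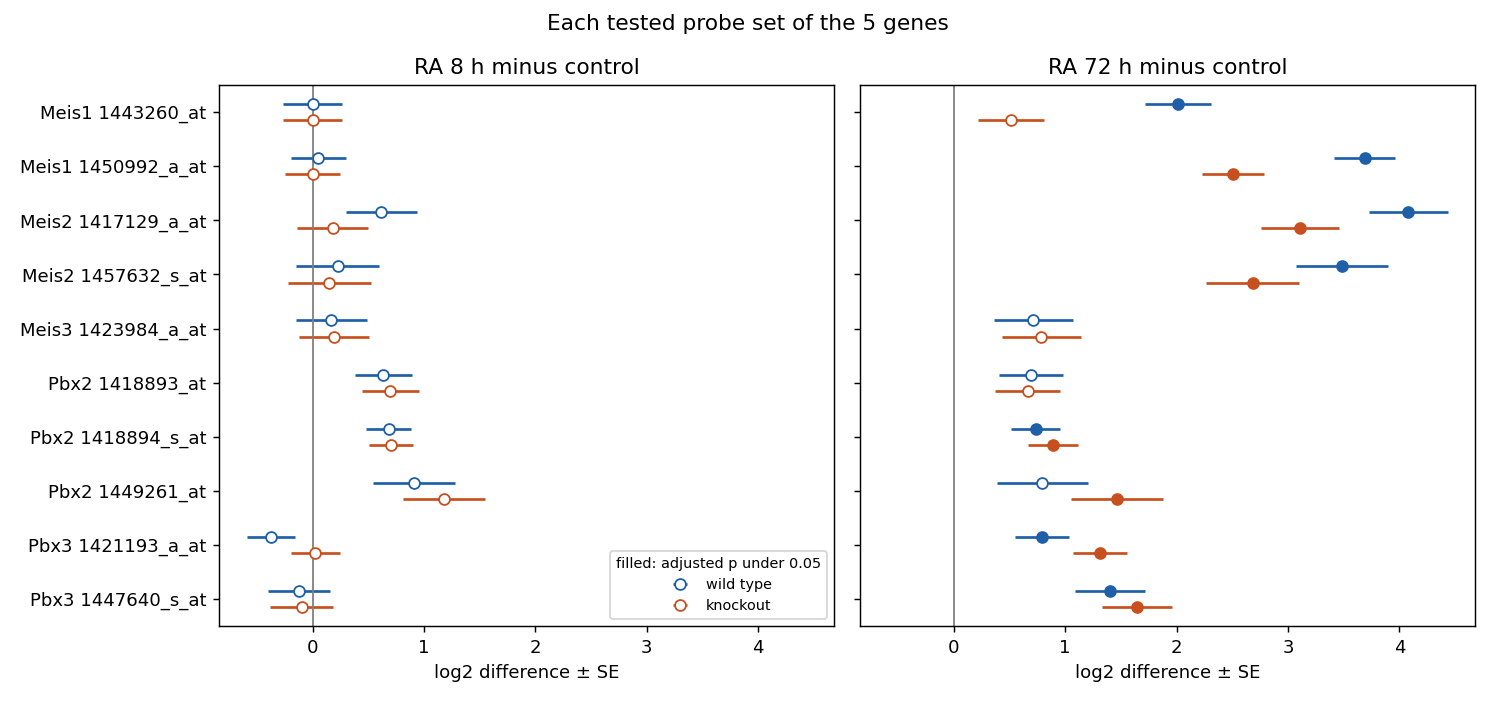
Log2 difference from control after 8 h and 72 h of RA for each of the 10 member probe sets tested, with bars of 1 standard error, blue for wild type and orange for knockout. Filled points have an adjusted p under 0.05. None is filled at 8 h, and at 72 h Meis1 and Meis2 reach 2.01 to 4.08 in wild type.

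At 8 h of RA 0 of 5 members were called by limma in either genotype, where 0.904% of all genes tested were called in wild type and 0.957% in the knockout. With the replicate number as a block 1 of 5, Pbx2, was called in each, where 2.41% and 3.0% of all genes were. Without it Pbx2 alone had an unadjusted p under 0.05 in each genotype. Meis2 differed by 0.62 ± 0.31 in wild type (adjusted p = 0.698) and 0.18 ± 0.31 in the knockout. Pbx3 stood at -0.12 ± 0.28 and -0.095 ± 0.28, and Meis3 at 0.17 ± 0.31 and 0.19 ± 0.31. For Meis1 the wild-type difference was 0.051 ± 0.24, while in the knockout both groups lay at the floor, which gives no fold. Of 8 genes known to be induced by RA that were tested, 6 rose and 0 fell at 8 h in each genotype, and 8 rose at 72 h. Of the 8, 1 (Hoxb1) passed the filter only through the 72 h arrays.

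**Figure D3:**
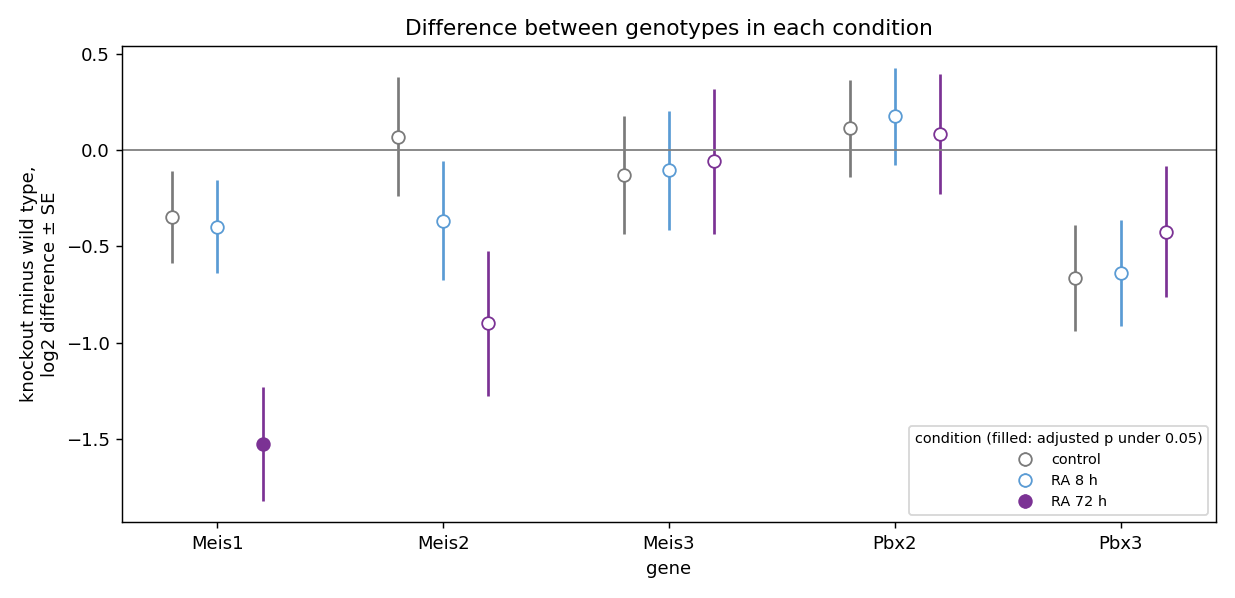
Knockout minus wild type (log2 difference, bars of 1 standard error) for the 5 genes in control cells and after 8 h and 72 h of RA. Meis1 at 72 h, at -1.53, is the only filled point, which marks an adjusted p under 0.05.

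Between genotypes, 1 of 5 members was called after 72 h of RA, where 4.07% of all genes tested were called and 2.68% were lower in the knockout. Meis1 read 330 and 245 units in the knockout against 728 and 921 in wild type and was lower by 1.53 on the log2 scale (-1.53 ± 0.30, adjusted p = 0.00715). All knockout control and 8 h arrays of Meis1 were set to the floor and add no spread to the shared estimate. The standard error and p may thus understate the spread of the 72 h arrays. The probe set 1443260_at gave -1.50 ± 0.33 (adjusted p = 0.0227 over all probe sets, of which 1.69% were called lower), from 91.5 and 55.7 units against 139 and 293. It was tested only through those wild-type arrays and so adds no independent support, and without the array with fibroblast markers it stood at -0.96 ± 0.30 (adjusted p = 0.227). The call on Meis1 was lost without replicate 2 of wild type, the array with fibroblast markers (-1.36 ± 0.38, adjusted p = 0.127), and without replicate 2 of the knockout (-1.31, adjusted p = 0.0975). The part of the fibroblast markers in this difference was not tested. Meis2 read 594 and 511 units in the knockout against 1069 and 989 in wild type, without overlap, and differed by -0.90 ± 0.38 (adjusted p = 0.243). It passed the test with a floor of 100 units (adjusted p = 0.000401) and in a fit of the groups compared alone (adjusted p = 0.0182). At a floor of 100 units every control array of Meis2 and most of its 8 h arrays are set equal. That removes spread from the estimate shared by all groups, so the smaller p at that floor is no support. The Meis2 probe set 1457632_s_at gave -1.08 ± 0.45, also without overlap, and -0.60 ± 0.54 without the array with fibroblast markers. Pbx3 did not overlap either and stood at -0.42 ± 0.34 (adjusted p = 0.626), while Pbx2 (0.083 ± 0.31) and Meis3 (-0.057 ± 0.38) overlapped. With 2 arrays per group, 26% of all genes had groups that did not overlap with the knockout lower.

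In control cells and after 8 h of RA 0 of 5 members were called by limma between genotypes, where 4.64% and 4.61% of all genes tested were. At an unadjusted p under 0.05 there was 1 member in each condition, Pbx3. In controls Pbx3 differed by -0.67 ± 0.28 (adjusted p = 0.230). The 8 h difference was -0.64 ± 0.28 (adjusted p = 0.247). After 8 h its wild-type arrays (236 to 306 units) all lay above the knockout arrays (159 to 210 units), which held downward for 11.7% of all genes. On 1421193_a_at the Pbx3 controls did not overlap either, at 172 to 210 units in wild type and 103 to 137 units in the knockout (-0.74 ± 0.22, adjusted p = 0.0957). Downward separation of the controls was seen in 9.20% of all probe sets. Meis1 read lower on every knockout array than on every wild-type array of the same condition, as did 10.3% of genes in controls and 11.7% after 8 h. Those knockout arrays lay under the floor, and the differences on floored values (-0.35 ± 0.24 and -0.40 ± 0.24) did not pass the test. Meis2, Meis3 and Pbx2 overlapped between genotypes in both conditions, with differences from -0.37 to 0.18.

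Whether the response to RA differed between genotypes was tested as an interaction. At 8 h 0 of 5 members were called by limma, as were 0% of all genes tested, and 211 of 11388 genes had an unadjusted p under 0.05. The member values ran from -0.44 ± 0.44 (Meis2) to 0.062 ± 0.36 (Pbx2). At 72 h 0 of 5 were called, beside 0.342% of all genes. Meis1 stood at -1.18 ± 0.38 (unadjusted p = 0.00731, adjusted p = 0.424) and Meis2 at -0.97 ± 0.49 (adjusted p = 0.965). Both values contain floored control signals, so they depend on the floor: with a floor of 100 units they were -1.53 and -0.90 and both passed the test (adjusted p = 0.000232 and 0.00625). At that floor all control arrays are set equal, so the value is that of the genotypes at 72 h. The equal arrays also add no spread to the shared estimate, so the smaller p-values at that floor are no support. Pbx3 stood at 0.24 ± 0.44, Meis3 at 0.072 ± 0.49 and Pbx2 at -0.030 ± 0.40.

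Withdrawal of LIF for 8 h rested on 1 array per genotype, which were fitted together with the 6 controls. Meis1 (32.2 units in wild type, 5.92 in the knockout) and Meis2 (57.3 and 36.4 units) were too dim to be tested. Meis3 read 215 and 94.2 units, Pbx2 1242 and 1166 units and Pbx3 337 and 147 units. Of these 3 members 0 were called by limma and 0 had an unadjusted p under 0.05, and 0% of 10476 genes were called, with 285 at an unadjusted p under 0.05. The differences were 0.33 ± 0.32 for Meis3, 0.31 ± 0.23 for Pbx2 and -0.11 ± 0.32 for Pbx3. The LIF labels of replicate 1 are in doubt by Socs3, as given above.

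The Hox genes, whose products bind DNA with these cofactors, moved at the same time as Meis1, Meis2 and Pbx3. Of 33 Hox genes on the array 19 were bright enough to be tested, 14 of them only through the 72 h arrays, so the counts at 72 h are a description and no support. After 72 h of RA 15 rose and 0 fell in wild type (median 2.11, genes with controls at the floor taken at their bounds), and 14 rose and 0 fell in the knockout (median 2.37). Without the wild-type array that carried fibroblast markers 12 rose in wild type, and without the replicate 1 controls 13 rose in the knockout. The smallest adjusted p-values in wild type were those of Hoxa7 (at least 2.78 ± 0.19), Hoxb3 (3.06 ± 0.25), Hoxb5 (at least 3.00 ± 0.25) and Hoxb1 (at least 3.34 ± 0.29), genes of the hindbrain and trunk. The same genes rose in the knockout by at least 2.89, at least 3.30, at least 3.03 and at least 2.79. At 8 h 1 of 19 rose in each genotype, Hoxb4, which was named for that reason after its values were seen (1.43 ± 0.23 in wild type and 1.50 ± 0.23 in the knockout). Between genotypes at 72 h 1 of 19 was lower in the knockout, Hoxc5, also named after its values were seen (-1.17 ± 0.23, adjusted p = 0.00825), with 85.3 and 81.9 units against 161 and 221, and 0 were higher. Hoxc5 reached 100 units only on those wild-type arrays and was thus tested through them. Without the array that carried fibroblast markers it was not past the test (-0.95 ± 0.23, adjusted p = 0.0623), and 1 of 19, Hoxb6, was called instead, higher in the knockout, and is named for that reason.

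**Figure D4:**
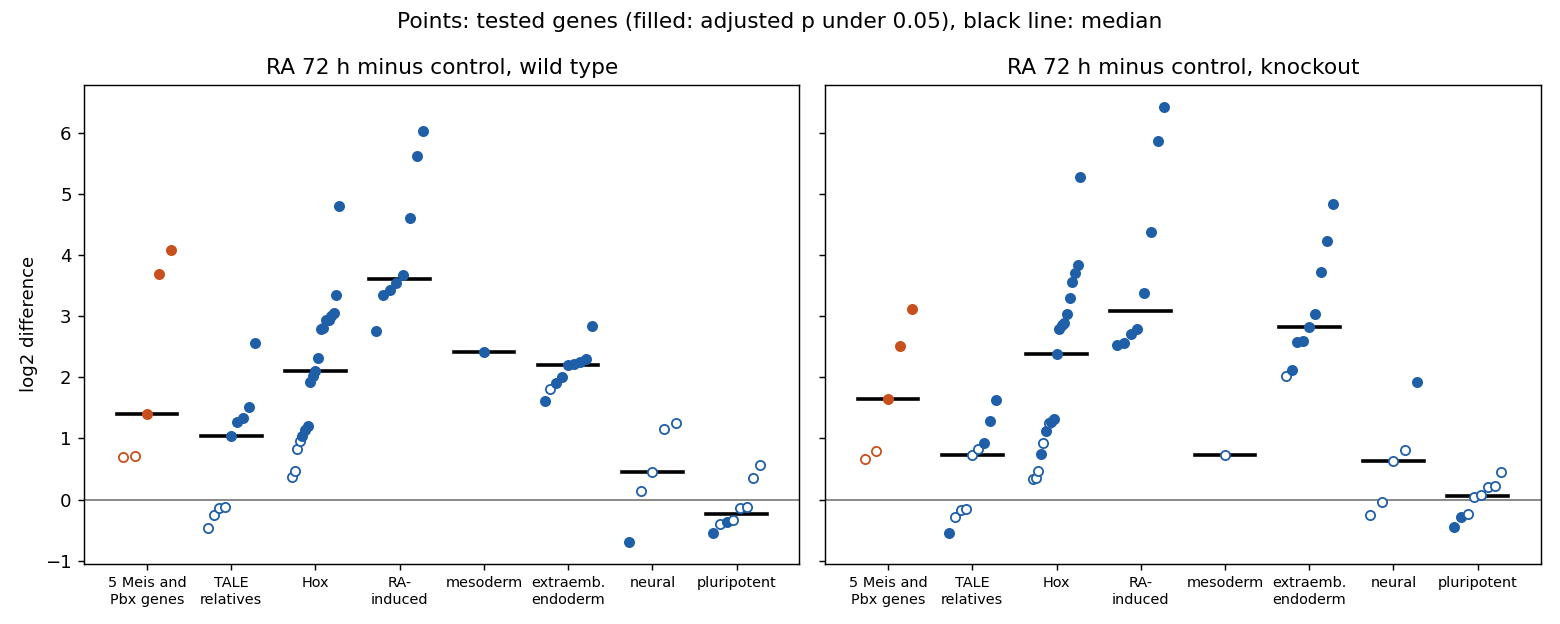
Log2 difference between 72 h of RA and control for each tested gene of the lists, in wild type (left) and knockout (right). Points are genes, filled where the adjusted p was under 0.05, with the 5 Meis and Pbx genes in orange and black lines at medians, which are 1.40 and 1.64 for these genes and 2.11 and 2.37 for Hox genes.

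Among the other TALE genes and the Pbx-binding protein gene Pbxip1, 13 of 14 listed genes were matched and 9 tested. Of the 9, 3 (Irx3, Pknox2 and Pbx4) passed the filter only through the 72 h arrays, so the counts at 72 h are a description and no support. In wild type 5 rose and 0 fell at 72 h, with a median of 1.03. These were Irx3, a patterning gene of the neural tube (2.56 ± 0.32, adjusted p = 4.25e-05), Pknox2, which encodes the Prep2 partner of Pbx (1.52 ± 0.32), Pbxip1 (1.27 ± 0.27), Mkx, a tendon regulator (1.33 ± 0.30), and Irx2 (1.03 ± 0.32). In the knockout Irx3 (1.29 ± 0.32), Pknox2 (at least 1.63 ± 0.32) and Pbxip1 (0.93 ± 0.27) rose, and Tgif2, which encodes a corepressor in TGF-beta signalling, fell (-0.54 ± 0.18, adjusted p = 0.0403). Tgif2 and Irx2 were named after their values were seen, and in wild type Tgif2 stood at -0.47 ± 0.18 (adjusted p = 0.0710). The fall of Tgif2 in the knockout was not past the test without the array that carried fibroblast markers (adjusted p = 0.0529) or without the replicate 1 controls (adjusted p = 0.0702). Irx3 was lower in the knockout at 72 h, at 184 and 109 units against 410 and 408 (-1.53 ± 0.35, adjusted p = 0.0222), the only call of this list between genotypes in the 3 conditions. That call was lost without the array that carried fibroblast markers (-1.53 ± 0.44, adjusted p = 0.125), as was the rise of Irx2 in wild type (adjusted p = 0.115), which was also lost without the replicate 1 controls (adjusted p = 0.0988). Pknox1, the ubiquitous Prep1 partner of Pbx, was not past the test at 72 h (-0.11 ± 0.26 in wild type). At 8 h 0 of the 9 were called by limma in either genotype.

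Genes described as bound or controlled by Meis or Pbx proteins in other tissues were mostly too dim to be tested. Of 10 such genes 4 reached the filter, Pax6, Ccnd1, Ccnd3 and Hif1a. Ccnd1, which encodes cyclin D1, fell at 72 h in both genotypes (-1.42 ± 0.23, adjusted p = 0.000324 in wild type, and -2.13 ± 0.23 in the knockout), and the other 3 did not pass the test. Their medians of 0.17 and 0.37 in wild type and knockout stood beside 0.064 and 0.056 over all genes.

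Of the marker lists for other cell types, only extraembryonic endoderm had genes that rose at 72 h in both genotypes. Of 9 extraembryonic endoderm genes 8 rose and 0 fell in each genotype, and their summed signal was 27218 and 29126 units in wild type and 22891 and 21876 in the knockout at 72 h, against 4237 to 10847 and 2845 to 4844 in controls. Without the array that carried fibroblast markers 4 of the 9 rose in wild type. Of 6 mesoderm genes on the array Meox1, a somite homeobox gene, was tested. It read 208 and 342 units in wild type at 72 h, 95.2 and 90.0 in the knockout and 8.35 to 16.2 in wild-type controls, rose in wild type (at least 2.42 ± 0.32) and was lower in the knockout (-1.53 ± 0.35, adjusted p = 0.0226). It would not have passed the filter without the wild-type 72 h arrays, and without the array that carried fibroblast markers the genotype difference was not past the test (-1.17 ± 0.40, adjusted p = 0.238). The summed signal of the 6 was 556 and 723 units in wild type at 72 h and 223 and 244 in the knockout, against 119 to 316 in the controls of both. Of 5 neural genes tested 0 rose and 1 fell in wild type, and 1 rose in the knockout. The wild-type fall depended on the array that carried fibroblast markers, without which the median of the 5 was 0.34 against 0.45 with it. Of the 7 fibroblast genes only Thy1 was tested, and it fell in both genotypes. Of 8 pluripotency genes 2 fell in each genotype, Sox2 and Zfp42, named here because they were the ones called. Both wild-type calls depended on the array that carried fibroblast markers, without which the median of the 8 was -0.16 against -0.24 with it. Without the replicate 1 controls 1 fell in the knockout, Zfp42, and 3 fell in wild type, Sox2, Tdgf1 and Zfp42. The part of these cells in the levels of Meis1, Meis2 and Pbx3 was not tested.

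The genes whose signal followed each member most closely over the 18 arrays were listed by Pearson's r on floored log2 values, as a description. All pairs share the arrays, their scaling and the 72 h groups that dominate the spread. For Meis1 these were Crygd, a lens crystallin gene (r = 0.984), Tshz1, a zinc finger gene (0.981), and Cyp26b1, another RA hydroxylase gene (0.980). Cyp26b1 read 465 and 557 units at 72 h in wild type and 294 to 321 in the knockout, and stayed under 61 units in all other groups. For Meis2 they were Adam9, a membrane protease gene (0.980), Dsc2, a desmosomal cadherin gene (0.975), and Hoxb1 (0.974). For Pbx3 they were Bmi1, a Polycomb gene (0.953), Hmgb3 (0.946) and Ccng1, a p53 target (0.944). Bmi1 shared the offset between genotypes, with 319 to 446 units in wild-type and 164 to 218 in knockout controls. Pbx2 was nearest to Llgl2, a cell polarity gene (0.915), Xylb (0.899) and Rnf19b (0.884), and Meis3 to Pld3 (0.869), Slc8b1 (0.860) and Slc30a5 (0.859). Between members r was 0.960 for Meis1 and Meis2, 0.846 for Meis1 and Pbx3, 0.853 for Meis2 and Pbx3 and 0.152 for Pbx2 and Pbx3.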

How the data were processed

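Total RNA of 18 samples was hybridised to 1 single-colour array each, after 3' cDNA synthesis and biotin labelling of the cRNA per the labels' protocols. The authors deposited linear signal intensity per probe set, made with MAS5 per the submitters' processing notes. Its version is not named in these sources, and the files name no genome build. All values were positive and the trimmed mean (2% off each end) was 500 on each array. Depth does not apply to arrays, and their number limits the precision.

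Here values under 50 units were set to 50, log2 was taken, and the probe set with the highest mean over the arrays stood for its gene. Platform annotation gave 34958 probe sets 1 symbol, 932 several and 9211 none. Of the first, 34754 matched RefSeq by Entrez number, with 0 symbols changed. Genes with at least 2 arrays of the fit at 100 units went into limma 3.58.1, run in R 4.3.3 (trend, 16 arrays of 6 groups, 10 residual degrees of freedom). The fit without LIF used 8 arrays, with genotype as a term and 5 residual degrees of freedom. Adjustment was Benjamini-Hochberg, two-sided, at 0.05. "At least" marks folds against a group wholly at the floor. Arrays set to the floor add no spread to the shared estimate, so standard errors of genes with many such arrays may be too small. Probe sets were also fitted singly (22757 tested). The test was checked on simulated data.

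The members and gene lists were chosen with earlier results of these data known. The text names every member, up to 4 genes of a list by smallest adjusted p in wild type at 72 h, and the 3 nearest patterns of each member. The labels do not say that repeats were separate cultures, so p-values measure the spread between samples, which may be technical. Replicates without a number were numbered in accession order. Deviations from group means correlated more between arrays of the same number (median r = 0.262, lowest 0.032, over 36 pairs) than of different numbers (-0.135), and over 0.1 in all 3 pairs of 8 h RA and control in each genotype. Such deviations cancel within a group, so the medians are tied to each other and the pairs are not independent. The labels name no pairing, so the fit without the block is the main one. Blocked values or counts stand beside the member calls they change. Alternatives were the floor, the filter, normalization, probe set summary, samples in the fit, replicate number and single arrays.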

Additional observations from a re-analysis of the deposited data

How the results depend on the processing

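The 72 h rises of Meis1 and Meis2 in both genotypes and of Pbx3 in the knockout kept their direction and their call under all 26 alternatives, with ranges of 1.92 to 3.86 and 1.12 to 2.72 (Meis1), 2.49 to 4.36 and 1.77 to 3.27 (Meis2) and 1.46 to 1.79 (Pbx3). The check of the replicate numbers is given with the processing. With the replicate block 5 members were called at 72 h against control in each genotype, and 1 at 8 h in each, Pbx2 (adjusted p = 0.0404 and 0.0218). From 8 to 72 h the block gave 4 in each genotype. Between genotypes it gave 0 in controls, 0 after 8 h and 1 after 72 h, where 9.39%, 9.78% and 8.82% of all genes were called. For LIF withdrawal it gave 0 members and 2.17% of all genes. With a floor of 100 units 2 members were called in the 72 h interaction and 2 between genotypes at 72 h, and a fit of the compared groups alone called 2 there. The calls at that floor are no support, as most arrays of Meis1 and Meis2 outside 72 h are then set equal. With the mean of a gene's probe sets 1 was called between genotypes in controls, Pbx3 (-0.70, adjusted p = 0.0419). Leaving out single arrays gave 0 to 1 members between genotypes at 72 h, 0 to 1 in controls (Pbx3 at -1.04, adjusted p = 0.0189, without wild-type replicate 3) and 2 to 4 at 72 h against control in wild type, without the 72 h replicate 2 (Pbx3 lost) and without control replicate 1 (Pbx2 gained). The values of probe sets and list genes without the arrays in doubt were chosen after seeing the data. Across 58 member values and 1461 alternatives, 71 turned the sign, 0 of them called. The causes were not tested. With the replicate 1 controls left out the turned values were -0.12 (Meis1, 8 h of RA in wild type), 0.12 (Meis1, 8 h interaction), -0.23 (Meis2, genotypes in controls), -0.022 and -0.070 (Meis3, 72 h and 8 h interaction), -0.090 (Pbx2, 8 h interaction), 0.044 (Pbx3, LIF withdrawal) and 0.055 and 0.033 (Pbx3, 8 h of RA in knockout and wild type). With the mean of probe sets they were 0.015 (Meis1, 8 h interaction), -0.025 (Meis2) and -0.090 (Pbx2) between genotypes in controls, and for Pbx2 0.14 and -0.0017 (72 h minus 8 h in knockout and wild type) and 0.27 (72 h interaction). With log2 of the signal plus 32, Meis2 between genotypes in controls was -0.16. With quantile normalization Meis3 was 0.075 between genotypes at 72 h and -0.045 in the 8 h interaction, and Pbx3 -0.047 there. Single arrays left out turned the sign of values near 0. For Meis1 these ranges were -0.18 to 0.25 (8 h of RA in wild type) and -0.25 to 0.18 (the 8 h interaction). For Meis2 these ranges were -0.13 to 0.45 (8 h of RA in the knockout) and -0.090 to 0.35 (the genotypes in control cells). For Meis3 these ranges were -0.27 to 0.42 (the 72 h interaction), -0.12 to 0.44 (8 h of RA in the knockout), -0.10 to 0.36 (8 h of RA in wild type), -0.29 to 0.29 (the 8 h interaction), -0.40 to 0.29 (the genotypes at 72 h), -0.42 to 0.15 (the genotypes at 8 h), -0.40 to 0.044 (the genotypes in control cells) and -0.20 to 0.86 (LIF withdrawal). For Pbx2 these ranges were -0.23 to 0.18 (72 h minus 8 h in the knockout), -0.083 to 0.26 (72 h minus 8 h in wild type), -0.25 to 0.18 (the 72 h interaction), -0.16 to 0.27 (the 8 h interaction), -0.067 to 0.23 (the genotypes at 72 h), -0.045 to 0.38 (the genotypes at 8 h) and -0.092 to 0.33 (the genotypes in control cells). For Pbx3 these ranges were -0.28 to 0.055 (8 h of RA in the knockout), -0.50 to 0.10 (8 h of RA in wild type), -0.20 to 0.40 (the 8 h interaction) and -0.38 to 0.16 (LIF withdrawal).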
